A study of Mus musculus with 26 samples.

Results

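The genes described here are 10 genes of the p53 and DNA damage response, namely Trp53, Mdm2, Mdm4, Atm, Atr, Chek1, Chek2, Trp53bp1, Mdc1 and Brca1. They were followed through lists of RNA 5-hydroxymethylcytosine (5hmC) peaks. Peaks were taken from the 13 immunoprecipitation (IP) lists of the series when their summit, the midpoint of the listed interval, lay within the span of one of these genes in the mm9 annotation (GENCODE M1), and overlapping intervals were merged into regions. This gave 62 of the 56538 peaks and 18 of the 23367 regions, and 8 of the 10 genes held at least 1 peak. Among all 22380 coding genes, 7200 (32.2%) held a peak, a share that rises with the length of the gene.

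The lists come from hMeRIP-seq, in which fragmented total RNA is pulled down with an anti-5hmC antibody and sequenced beside an input sample. Mouse embryonic stem cells (ESCs) of wild-type genotype (WT ESC), ESCs in which Tet1, Tet2 and Tet3 were all knocked out (TKO ESC), and wild-type embryoid bodies (WT EB) had 3 IP libraries each. Embryoid bodies are aggregates in which ESCs differentiate, here after 4 days without leukemia inhibitory factor (LIF), whereas all ESC groups were grown with LIF and serum. Tet2-KI ESC carry a triple tag (Flag, HA and Twin-Strep) at the end of the endogenous Tet2 gene in an otherwise wild-type background, and Tet2dRBD-KI ESC carry the same tag on a Tet2 without its RNA-binding domain (RBD). Both knock-in groups derive from picked clones and had 2 IP libraries each, so a difference between them cannot be told apart from a difference between clones. The lists differed in length from 498 to 10383 peaks, and the 10 genes held between 1 and 12 peaks per library, or 0.546 to 4.02 per 1000 listed peaks. Replicate 1 of each group of 3 carries another description prefix (1608 or 1610) than replicates 2 and 3 (1703). A peak list measures neither the level of a transcript nor the depth behind it, and a region without a peak is one in which none passed the caller's threshold. Of the genes targeted in TKO ESC, Tet1 had peaks in all 3 TKO ESC libraries and Tet2 and Tet3 in none, which does not test the deletions, since peaks are not expression. The cell labels were not tested by markers for the same reason: 5 of 7 stem cell markers and 2 of 6 early differentiation markers held a peak in any library.

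The p53 protein, encoded by Trp53, is a transcription factor that halts the cell cycle or triggers cell death after DNA damage. In unstressed cells it is kept low by Mdm2, a ubiquitin ligase that marks it for destruction, and is held inactive by the related Mdm4. The kinases Atm and Atr sense broken DNA and stalled replication forks and act through the checkpoint kinases Chek2 and Chek1, while Mdc1, Trp53bp1 and Brca1 assemble at breaks and guide their repair. Stem cells divide fast with short gap phases and rely heavily on the fork-sensing branch. Tet enzymes, best known for oxidizing 5-methylcytosine in DNA, also form 5hmC from 5-methylcytosine in RNA.

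Sequences are shown for the regions whose peaks were found throughout a group, since the comparisons of groups turn on them. They are the 6 regions outside untranslated parts that had a peak in every library of at least 1 group, read from the mm9 assembly on the strand of the transcript, with runs of 8 or more purines (A or G) in capitals. The longer Mdm4 and Chek2 regions are shown by the 200 bp around the median summit, and bases annotated as untranslated in any coding transcript were left out.
Mdc1, exon 8, chr17:35987542-35987795, plus strand: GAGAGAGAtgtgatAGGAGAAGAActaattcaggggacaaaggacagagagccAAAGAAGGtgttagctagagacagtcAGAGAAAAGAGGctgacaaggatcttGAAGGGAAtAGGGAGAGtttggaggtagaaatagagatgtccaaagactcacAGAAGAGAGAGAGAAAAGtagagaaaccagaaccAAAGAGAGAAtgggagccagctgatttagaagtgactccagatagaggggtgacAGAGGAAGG
Mdm4, intron 1, chr1:134921630-134921824, minus strand: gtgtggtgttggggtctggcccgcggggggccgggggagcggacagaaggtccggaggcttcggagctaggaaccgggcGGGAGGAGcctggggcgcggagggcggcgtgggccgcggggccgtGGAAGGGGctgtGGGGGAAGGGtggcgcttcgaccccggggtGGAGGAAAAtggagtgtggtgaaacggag
Trp53, intron 1, chr11:69394167-69394381, plus strand: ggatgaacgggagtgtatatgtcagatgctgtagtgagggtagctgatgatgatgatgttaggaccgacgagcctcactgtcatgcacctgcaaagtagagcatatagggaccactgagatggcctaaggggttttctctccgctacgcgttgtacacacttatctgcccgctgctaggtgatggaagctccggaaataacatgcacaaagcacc
Trp53, intron 2 to intron 3, chr11:69400613-69400849, plus strand: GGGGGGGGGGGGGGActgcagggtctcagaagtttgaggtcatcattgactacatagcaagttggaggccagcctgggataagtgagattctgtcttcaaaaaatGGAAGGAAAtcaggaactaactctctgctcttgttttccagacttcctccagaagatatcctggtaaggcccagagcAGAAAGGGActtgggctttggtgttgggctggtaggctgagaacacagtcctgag
Atr, intron 6, chr9:95768530-95768715, plus strand: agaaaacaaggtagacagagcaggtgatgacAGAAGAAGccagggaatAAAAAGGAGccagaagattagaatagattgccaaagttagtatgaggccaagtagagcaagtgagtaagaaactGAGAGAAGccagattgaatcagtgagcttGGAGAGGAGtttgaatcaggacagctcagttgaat
Chek2, intron 9, chr5:111293855-111294054, plus strand: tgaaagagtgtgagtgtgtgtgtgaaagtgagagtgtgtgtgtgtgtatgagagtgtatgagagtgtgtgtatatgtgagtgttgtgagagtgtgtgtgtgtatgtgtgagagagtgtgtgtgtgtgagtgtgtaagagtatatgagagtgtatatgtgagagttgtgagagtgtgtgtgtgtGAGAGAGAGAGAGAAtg
The Mdc1 stretch held 9 purine runs in 254 bases, the longest of 18 bases, and the Trp53 intron 1 stretch held 0. The Chek2 stretch is made largely of short TG and GA repeats and contains 0 cytosines on the transcript strand, the base that could carry 5hmC. The other 5 stretches contain between 22 and 47 cytosines.

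Peaks in these genes were mostly intronic. By summit, 42 of the 62 peaks lay in introns, 19 in coding exons and 1 in a 5′ untranslated region (UTR), and 14 of the 19 coding peaks belonged to Mdc1. Of the 18 regions, 13 (72.2%) had their median summit in an intron, beside 69.8% of the 18820 regions in all coding genes. Recurrence was uneven: 7 regions were seen in 1 library, 2 in 2 libraries and 9 in 3 or more. Over all coding-gene regions these shares were 54.2%, 17.4% and 28.4%. The 8 of 18 regions with peaks in knock-in libraries alone compare with a share of 37.8% among all coding-gene regions. A knock-in peak was held by 16 of the 18 regions and missing from 2, beside 15179 of all 23367 regions of the series, intergenic ones included, that held one. Only the Mdc1 exon 8 region was found in all 13 libraries.

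**Figure D1:**
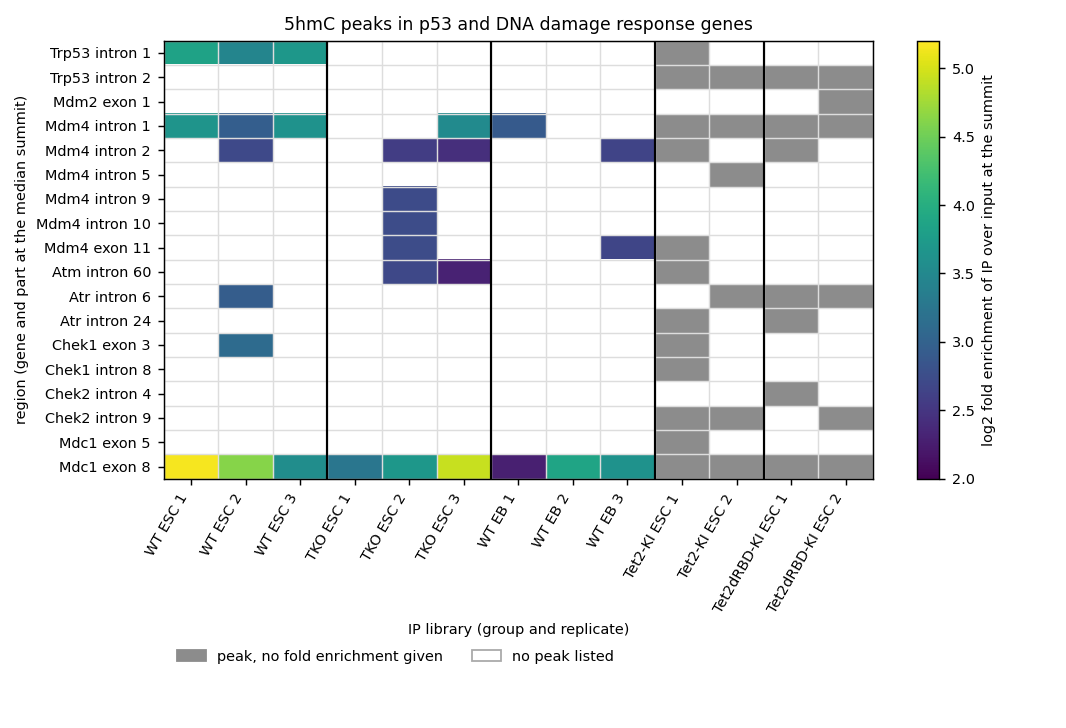
Presence and strength of the 18 regions (rows, named by gene and by the part of the transcript at the median summit) in the 13 IP libraries (columns, by group and replicate). Colour gives the log2 fold enrichment of IP over input at the summit, grey marks a peak in a knock-in list, which holds positions only, and white marks no listed peak. The Mdc1 exon 8 row is filled in all 13 libraries, while 7 rows have 1 filled cell.

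Mdc1 is a scaffold protein that binds phosphorylated histone H2AX at breaks and recruits further repair factors. Its recurrent region (chr17:35987542-35987795) lay within exon 8 of 16, a coding exon of 711 bp, and covered codons 801 to 885 of 1708. All 13 summits fell within 54 bp of each other. The fold enrichment of IP over input, as computed by the authors' peak caller, was 35.8, 24.6 and 11.9 in the respective WT ESC replicates (mean 24.1 ± 12.0, SD, n = 3). It was 9.56, 12.9 and 30.4 in TKO ESC (mean 17.6 ± 11.2, SD, n = 3). It was 4.88, 14.6 and 12.4 in WT EB (mean 10.6 ± 5.09, SD, n = 3). The groups overlapped: TKO ESC replicate 3 exceeded 2 of the WT ESC libraries, and WT EB replicates 2 and 3 exceeded WT ESC replicate 3. Within its own list the Mdc1 peak stood above 94.4% or more of the peaks in each WT ESC library, above 86.3% or more in each TKO ESC library, and above 38.4%, 92.0% and 86.6% in WT EB replicates 1 to 3. A region found in all 13 libraries was uncommon. There were 58 such regions in the whole series, 52 of them in coding genes. Such a region was held by 47 coding genes, or 0.653% of the coding genes with a peak. By mean fold enrichment the Mdc1 region ranked 10 among the 58 in WT ESC, whereas its rank was 14 for TKO ESC and 19 for WT EB. A second Mdc1 region, in exon 5, had a peak in Tet2-KI ESC replicate 1 alone.

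The enrichment of this Mdc1 region could be compared between groups because it had a value in each of the 9 libraries whose lists give one. On the log2 scale it was -0.49 in TKO ESC relative to WT ESC (SE 0.52, limma adjusted p = 0.913) and -1.19 in WT EB relative to WT ESC (SE 0.53, limma adjusted p = 0.324). Neither difference passed the threshold of 0.05, and the unadjusted p-values were 0.359 and 0.0414. Among all regions with a peak in the 6 libraries compared, limma called 0 of 283 (0%) for TKO ESC and 0 of 94 (0%) for WT EB, while 10 and 13 regions had an unadjusted p below 0.05. With so few libraries per group, the lack of calls does not show that enrichment was unchanged. The median log2 difference over those regions was -0.05 for TKO ESC and -0.30 for WT EB, and after centring each library on its median the Mdc1 difference for WT EB was -0.88 (SE 0.47, limma adjusted p = 0.437). Within the 1703 libraries, 2 per group, the Mdc1 difference was 0.21 for TKO ESC, in the other direction (limma adjusted p = 0.874), and -0.35 for WT EB (limma adjusted p = 0.692). Leaving out WT ESC replicate 1, whose value was the highest, gave -0.14 and -0.84 (limma adjusted p = 0.987 and 0.590), leaving out TKO ESC replicate 1 gave -0.14 for TKO ESC, and leaving out WT EB replicate 1 gave -0.70 for WT EB (limma adjusted p = 0.467). Other omissions enlarged the difference: without TKO ESC replicate 3 it was -0.98 for TKO ESC (limma adjusted p = 0.992), and without WT ESC replicate 3 it was -0.93 for TKO ESC and -1.63 for WT EB (limma adjusted p = 0.969 and 0.153).

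**Figure D2:**
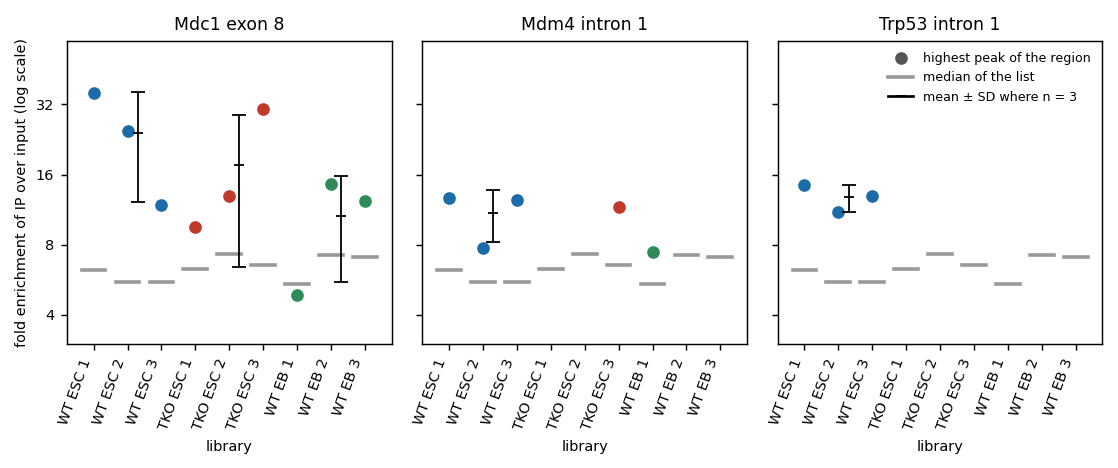
Fold enrichment of IP over input (log axis) in the 9 libraries whose lists give it, for the regions of Mdc1 exon 8, Mdm4 intron 1 and Trp53 intron 1. Points are the highest peak of the region in a library, grey bars the median of all peaks of that library's list, and black bars the mean ± SD where a group has 3 values; a missing point is a library without a listed peak. Trp53 intron 1 has points in WT ESC only, and the Mdc1 points of the 3 groups overlap.

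Trp53 showed 2 intronic regions with different distributions over the groups. The region in intron 1 (chr11:69394167-69394381), with its median summit 418 bp from the start of the gene, was listed in all 3 WT ESC libraries and in 0 libraries of the TKO ESC and WT EB groups. Its fold enrichment in WT ESC was 14.4, 11.0 and 12.9, a mean of 12.8 ± 1.70 (SD, n = 3), and the peak stood above 97.2%, 92.2% and 95.7% of the peaks of the respective lists. All 3 values lay well above the median of their lists, 5.55 to 6.25. Among the knock-in libraries it was listed in Tet2-KI ESC replicate 1 alone. The other region (chr11:69400613-69400849) spans exon 3, an exon of 22 bp that encodes codons 28 to 35 of 390, with the median summit 16 bp before the exon. It had a peak in all 4 knock-in libraries and in none of the other 9, each list having been called on its own. Among the 772 coding-gene regions with peaks in all 4 knock-in libraries, 109 (14.1%) shared this distribution, and the knock-in groups cannot be told apart from when and how their libraries were made. With 8 peaks in all, each of its 2 regions counting again in every library, Trp53 held more peaks than 96.2% of coding genes of like length, within a factor of 1.5.

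Of the 2 genes that restrain p53, Mdm4 carried 23 peaks in 6 regions and 11 libraries, and Mdm2 carried 1. Mdm4 held more peaks than 97.5% of coding genes of like length and Mdm2 more than 63.1%. For the other genes with a peak this share was 97.5% for Mdc1, 84.4% for Chek1, 81.3% for Chek2, 74.1% for Atr and 59.0% for Atm. The value for Mdm2 is the share of such genes without any peak, since 36.9% of them held at least 1. Peak counts take a region again in each library where it was listed. The Mdm4 region in intron 1 (chr1:134921486-134921901), which overlaps the first, untranslated exon by 77 bp, was found in 9 libraries. Its fold enrichment was 12.7, 7.78 and 12.4 in WT ESC (mean 11.0 ± 2.75, SD, n = 3), 11.6 in TKO ESC replicate 3 and 7.48 in WT EB replicate 1, and all 4 knock-in lists had a peak there. The values outside WT ESC thus fell within or just under the WT ESC range, and 2 libraries each of TKO ESC and WT EB had no peak. The region in Mdm4 intron 2 (chr1:134910727-134911011) appeared in 6 libraries of all 5 groups, where the fold enrichment was 6.51 for WT ESC replicate 2, 5.96 and 5.38 in TKO ESC replicates 2 and 3, and 6.30 in WT EB replicate 3. All 4 values were below those of intron 1, and 1 of them, that of WT ESC replicate 2, exceeded the median of its list. In the last coding exon of Mdm4 (exon 11 of 11, chr1:134888554-134888768, codons 313 to 384 of 490), peaks were listed in TKO ESC replicate 2 at 6.68, in WT EB replicate 3 at 6.34 and in Tet2-KI ESC replicate 1. The other 3 Mdm4 regions, in introns 5, 9 and 10, had 1 peak each. The Mdm2 peak lay in the 5′ UTR of its first exon and was listed in Tet2dRBD-KI ESC replicate 2 alone.

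**Figure D3:**
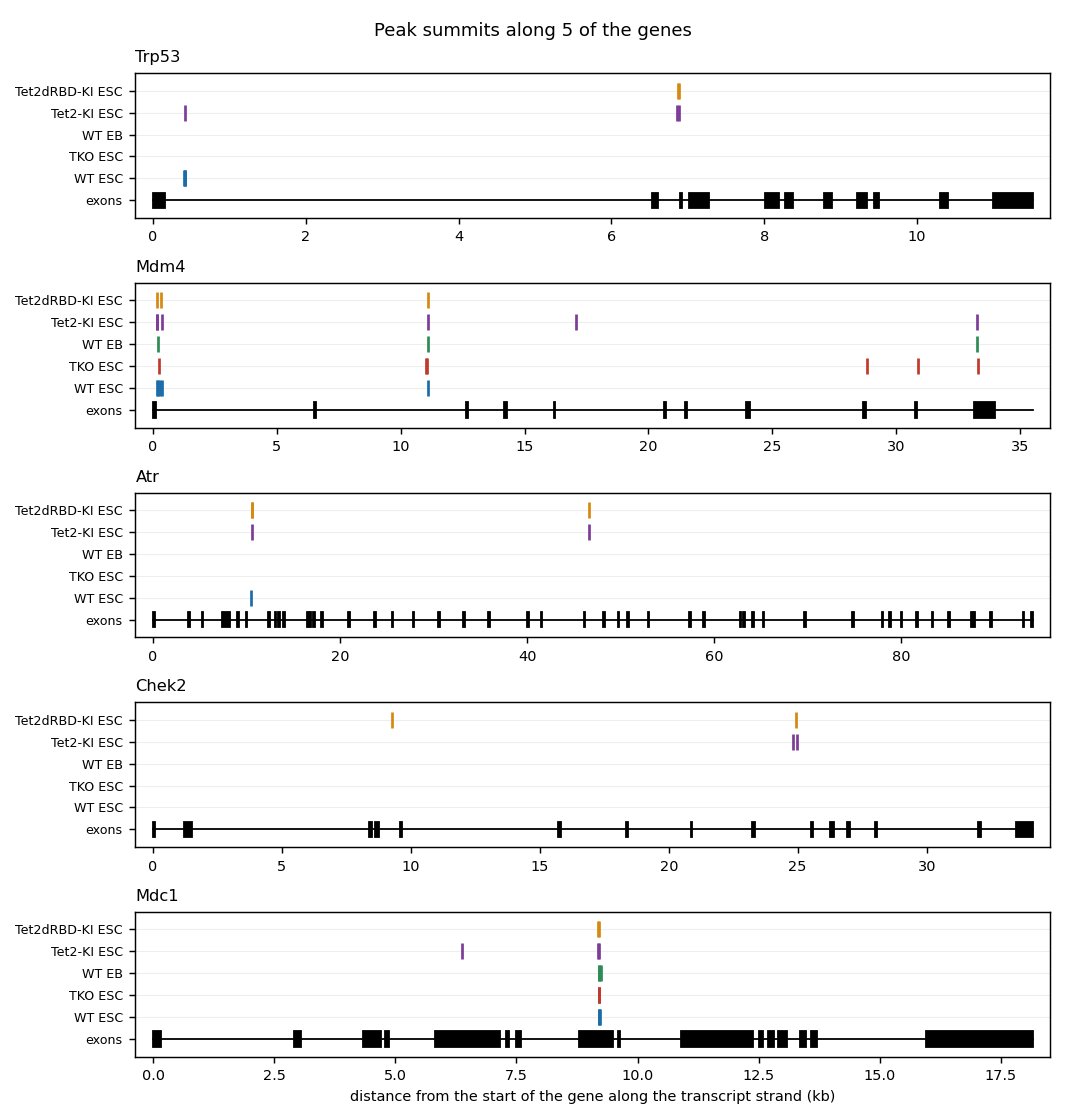
Peak summits along Trp53, Mdm4, Atr, Chek2 and Mdc1, with the distance from the start of the gene along the transcript strand in kb on the horizontal axis. Black boxes are exons of the coding transcript with the longest coding sequence, and each coloured tick is the summit of 1 peak in 1 library, in a row for each group. The Mdc1 ticks of all groups align over exon 8, and 11 of the 23 Mdm4 ticks lie in the region near the start of the gene.

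The damage-sensing kinases Atm and Atr held 3 and 6 peaks. Atm, activated by double-strand breaks, had 1 region over 97.6 kb, in intron 60 of 63 (chr9:53251550-53251873), with a fold enrichment of 6.47 and 4.93 in TKO ESC replicates 2 and 3 and a peak in Tet2-KI ESC replicate 1. Both values lay below the median of their list. Atr, activated by single-stranded DNA at stalled forks, had 2 regions over 94.0 kb. The first, in intron 6 of 46 (chr9:95768433-95768715), was listed in WT ESC replicate 2 at 7.70, in Tet2-KI ESC replicate 2 and in both Tet2dRBD-KI ESC libraries, and overlaps by 97 bp the last exon of a short coding transcript of Atr. The second, in intron 24, was found in Tet2-KI ESC replicate 1 and Tet2dRBD-KI ESC replicate 1. The span of Atr also holds 3 other annotated genes, whose reads the lists do not separate.

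The checkpoint kinases had 2 regions each. Chek1, which acts downstream of Atr, had a region over its coding exon 3 in WT ESC replicate 2 at a fold enrichment of 8.67 and in Tet2-KI ESC replicate 1, and an intron 8 region in the latter library alone. Chek2, which acts downstream of Atm, had its peaks in knock-in libraries alone: the intron 9 region (chr5:111293769-111294107) in both Tet2-KI ESC libraries and in Tet2dRBD-KI ESC replicate 2, and the intron 4 region in Tet2dRBD-KI ESC replicate 1. The adaptor Trp53bp1, which favours end joining at breaks, and Brca1, a ubiquitin ligase of homologous recombination, held no listed peak over 78.1 and 63.2 kb. Of the coding genes within a factor of 1.5 of their lengths, 57.2% and 54.1% had at least 1 peak.

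Presence was compared first between WT ESC and TKO ESC, which asks whether peaks of stem cells are still listed without the Tet enzymes. A region was called when every library of one group and none of the other had a peak. With 3 libraries against 3 an exact permutation test cannot give a p-value under 0.1, so calls are descriptions. Of the 10 member regions with a peak in either group, 1 was called as present in WT ESC and missing from TKO ESC, the Trp53 intron 1 region, beside 494 of 14053 regions (3.52%) in all. In the other direction 0 of 10 were called, beside 6 regions (0.0427%) in all. Leaving out TKO ESC replicate 3 gave 2 calls of 10, with Mdm4 intron 1 added, beside 5.15% of all regions under the same setting. The Atm region was the 1 call of 10 in the other direction without TKO ESC replicate 1 (2.28% of all regions), in the 1703 libraries (2.61%) and with peaks in 2 of the 3 TKO ESC libraries sufficing (2.38%). With the lists of these groups shortened to their 498 strongest peaks the Trp53 call was lost, with 0 of 3 member regions called beside 1.14% of all regions. The Trp53 peak stood above 92.2% of the 7113 peaks of WT ESC replicate 2, which left it outside the 498 strongest there. It stayed within them in WT ESC replicates 1 and 3, and no TKO ESC list held it at any length.

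The same comparison of WT ESC with WT EB follows differentiation and shares the WT ESC libraries with the first. Of 7 member regions with a peak in either group, 1 was called in WT ESC, again Trp53 intron 1, beside 841 of 13573 regions (6.2%) in all, and 0 in WT EB, beside 3 regions (0.0221%). Mdm4 intron 1 joined it, making 2 of 7, without WT EB replicate 1 (6.83% of all regions) and in the 1703 libraries (15.6% of all regions). Lists shortened to 498 peaks gave 0 of 3, beside 1.82% of all regions, the Trp53 peak again being outside the strongest 498 of WT ESC replicate 2.

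Tet2-KI ESC and Tet2dRBD-KI ESC were compared to follow the RNA-binding domain of Tet2. None of the 16 member regions with a knock-in peak was called in either direction, that is 0 beside 1069 of 15179 regions (7.04%) in Tet2-KI ESC and 0 beside 217 regions (1.43%) in Tet2dRBD-KI ESC. With 2 libraries against 2 an exact permutation test cannot give a p-value under 0.333. Trp53 intron 2, Mdm4 intron 1 and Mdc1 exon 8 had a peak in all 4 libraries. The counts depended on single libraries: without Tet2-KI ESC replicate 2, which left the longest list of the series alone in its group, 6 of 15 regions, in Trp53, Mdm4, Atm, Chek1 and Mdc1, were called in Tet2-KI ESC, beside 52.2% of all regions under that setting. In Tet2dRBD-KI ESC 1 of the 15, Atr intron 6, was then called, beside 2.75% of all regions. Without Tet2-KI ESC replicate 1 the count in Tet2-KI ESC was 1 of 10, beside 32.8% of all regions. Without Tet2dRBD-KI ESC replicate 1 that in Tet2dRBD-KI ESC was 1 of 15, beside 11.2%. Without Tet2dRBD-KI ESC replicate 2 each direction had 1 of 15, Chek2 intron 9 and Chek2 intron 4, beside 8.7% of all regions for Tet2-KI ESC against 9.86% for Tet2dRBD-KI ESC.

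The other genes of the pathway were looked at as 4 lists with 102 genes in all, of which 66 (64.7%) held a peak, in 209 regions. The share among all coding genes was 32.2%, not matched for length. Peaks were found in 18 of 30 p53 targets, 13 of 22 regulators of p53, 17 of 25 genes of break and fork signalling and 18 of 25 genes of break repair. Of the 209 regions 0 were found in all 13 libraries, beside 52 of the 18820 coding-gene regions. Of the 109 regions with a peak in WT ESC or TKO ESC, 1 was called in WT ESC and 0 in TKO ESC, beside 3.52% and 0.0427% of all regions tested. That region lies in an intron of Rif1, a factor that limits the trimming of broken ends together with Trp53bp1 (chr2:51934086-51934537), and its fold enrichment in WT ESC was 7.65 ± 3.30 (SD, n = 3). It was also the 1 region called in WT ESC against WT EB, of 110 tested, and 0 were called in WT EB, beside 6.2% and 0.0221% of all regions tested.

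Between the knock-in groups, 15 of 141 pathway regions were called in Tet2-KI ESC (background 7.04%) and 3 in Tet2dRBD-KI ESC (background 1.43%). The 15 regions comprised 7 of the 42 regions with a knock-in peak in break and fork signalling, 6 of 34 in break repair, 2 of 45 in regulators of p53 and 0 of 20 in p53 targets. By position the first were intronic regions of Xrcc5, a subunit of the Ku complex of end joining, and of Rfwd2, a ubiquitin ligase of p53, a region of Parp1, which senses DNA nicks, and a coding region of Nbn, a subunit of the complex that first binds broken ends. The Rfwd2 region was also listed in 2 WT EB libraries, 2 TKO ESC libraries and 1 WT ESC library, and the Nbn region in 1 WT ESC library. The 3 regions called in Tet2dRBD-KI ESC lay in a coding exon of H2afx, the histone that Mdc1 binds, in the 5′ UTR of Cdc25a, a phosphatase that Chek1 inhibits, and in an intron of Timeless, a component of the fork protection complex. The H2afx region was also listed in 1 WT EB library, and the Cdc25a and Timeless regions in 1 WT ESC library each.

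Base composition was taken on the transcript strand over 200 bp around each median summit, since the lists do not give the strand of the reads. The 18 windows held a median of 43.5% pyrimidine (C or T), from 23.5% to 55.5%, and 17 of them held under 50%, beside a median of 42.5% and 79.8% of windows under 50% in the 18820 coding-gene regions. The lowest values were in Atr intron 6 at 23.5%, Mdc1 exon 8 at 25.0%, Mdm4 intron 1 at 31.0% and Chek2 intron 9 at 33.5%, all regions of 3 or more libraries. For Mdc1 only 3.33% of coding-gene regions had less pyrimidine, and for Atr intron 6 only 2.67%. The coding-gene regions found in all 13 libraries, 52 in number and including Mdc1, had a median of 32.5%. The Chek2 intron 9 window was the 1 member window with 0 cytosines, as were 30 of the 18820 (0.159%), and the whole region of 339 bp held 13 cytosines, all outside that window.

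**Figure D4:**
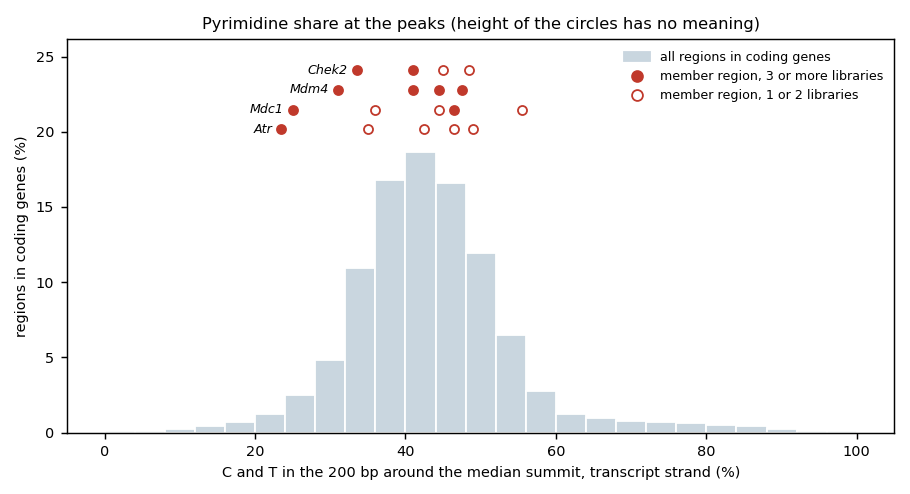
Share of C and T in the 200 bp around the median summit on the transcript strand. Bars give the percentage of all 18820 coding-gene regions in bins of 4 percentage points, and red circles the 18 member regions, filled where a peak was found in 3 or more libraries (the height of the circles has no meaning). The 4 lowest members, in Atr, Mdc1, Mdm4 and Chek2, are named, and 17 of the 18 lie under 50%.

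Short motifs were counted as letters on the transcript strand of the same windows. GAGAG occurred in 9 of the 18 windows (50.0%), beside 41.2% of all coding-gene windows, and its reverse complement CTCTC in 2 (11.1%), beside 15.8%. TGTGTG, counted on this strand alone, occurred in 4 (22.2%), beside 14.6%, and a tandem repeat, a run of at least 18 nt of a unit of up to 4 nt (20 nt for units of 4), in 4 (22.2%), beside 8.45%. The repeats lay in Mdm4 intron 5 (GA, 36 nt), Atr intron 24 (AGGG, 28 nt), Chek1 intron 8 (GT, 22 nt) and Mdc1 exon 5 (GAG, 27 nt), all in regions of 1 or 2 libraries. None of the 9 regions of 3 or more libraries held one by this rule, which counts unbroken runs only. The Chek2 intron 9 window, of 3 libraries, is made largely of TG and GA repeats whose runs are interrupted. Regions within 1000 bp of the start of the gene numbered 3 (16.7%), in Trp53, Mdm4 and Mdm2, beside 13.6% of all coding-gene regions.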

How the data were processed

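The authors removed low-complexity reads with AfterQC and rRNA and tRNA reads with Bowtie2, trimmed with Trimmomatic, mapped with STAR to mm9 and a RefSeq transcriptome, and ran MACS2 per IP library with the matching input as background, at a q-value under 0.05. Tool versions are not given in the sources used here. The 13 deposited lists are not pooled, and each interval is 200 bp around a summit. For 9 lists, those without a knock-in, the deposited column is a ratio, the fold enrichment of IP over input, and the 4 knock-in lists hold positions only. Depth is unknown, so no interval for counting error is given.

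Intervals were merged across libraries where they overlapped by at least 1 bp and placed on GENCODE M1 of NCBIM37, the assembly behind mm9 (99.7% of intervals on its chromosomes, and 0 chromosomes overrun). Exon numbers are those of the coding transcript with the longest coding sequence. A presence call required peaks in all libraries of the first group and 0 in the second. Fold enrichment (highest peak of a region, log2, no pseudocount) was fitted with limma 3.58.1 in R 4.3.3 over all regions with a peak in all 6 libraries, with Benjamini-Hochberg adjustment at 0.05. Python 3.11.15, pandas 2.3.3, numpy 2.4.6 and pysam 0.24.0 were used, and the code was tested on simulated data.

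Groups and replicate numbers came from the sample titles. At most 1.97% of the intervals of 1 list were identical to those of another over 78 pairs, so each library was counted as a separate sample. The study describes its wild-type ESC hMeRIP-seq as biological replicates and its other hMeRIP-seq comparisons as independent experiments, all in triplicate. The series holds 2 IP libraries for each knock-in group. The labels do not say which culture a library came from, so p-values measure the spread between these libraries. For WT ESC and TKO ESC, deviations of same-numbered libraries from their group means correlated across regions at 0.331, 0.126 and 0.119. The numbers were taken to pair these libraries, from the data and not from the labels. This pairing is weak, since WT ESC replicate 3 and TKO ESC replicate 2 correlated at 0.162. The main fit was unpaired, and pairing entered the replicate block only.

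The member genes, gene lists, tests and alternatives were chosen with earlier results of these data known. Member regions present in every library of a group or in at least 3 libraries were named, and others that are located were chosen after their values were seen. Of the 102 other pathway genes, all matched to the annotation (Pidd1 through an older symbol), those with a called region were named, at most 4 per comparison and direction, by the highest lowest fold enrichment or by position where none was given. Alternatives were an overlap of 100 bp, any overlap of the interval with the gene, peaks at or above the median of their list, lists of equal length, presence in 2 of 3 libraries, the 1703 libraries, centring, regions with 2 libraries per group, the mean of the peaks, the replicate block, and each library left out in turn.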

Additional observations from a re-analysis of the deposited data

How the results depend on the processing

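The number of member regions was 18 with an overlap of 100 bp and with any overlap of the interval with the gene, and 16 to 18 when 1 replicate was left out. It was not recomputed under the other alternatives. Lists of equal length gave 0 regions present in WT ESC and missing from TKO ESC, and 0 missing from WT EB, in place of 1 each. The shortened list of WT ESC replicate 2 no longer held the Trp53 peak. Presence in 2 of 3 libraries, and separately the 1703 libraries alone, gave 1 region present in TKO ESC and missing from WT ESC in place of 0, and the 1703 libraries gave 2 regions present in WT ESC and missing from WT EB. Leaving out 1 replicate gave 1 to 2 regions for WT ESC against TKO ESC, 0 to 1 for TKO ESC against WT ESC, 1 to 2 for WT ESC against WT EB, 0 to 6 for Tet2-KI ESC against Tet2dRBD-KI ESC and 0 to 1 for the reverse. The log2 difference of the Mdc1 coding region between TKO ESC and WT ESC turned to 0.21 in the 1703 libraries, and over 12 alternatives it ran from -0.98 to 0.21 (limma adjusted p 0.773 to 0.992). For WT EB it ran from -1.63 to -0.35 (limma adjusted p 0.134 to 0.692). Regions called by limma between WT ESC and WT EB numbered 0 to 1 when 1 replicate was left out, the 1 without WT ESC replicate 1. Apart from the lists of equal length, the cause of these changes was not tested. Depth, which the lists do not give, limits all statements on missing peaks.

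With the replicate block, limma called 0 regions between WT ESC and TKO ESC, as without it, and the Mdc1 difference stayed uncalled (limma adjusted p = 0.776). Presence calls come from no test and have no blocked form. Between WT ESC and WT EB, same-numbered libraries correlated at 0.285, 0.152 and -0.0178, so the numbers were not taken to pair them. In both comparisons WT ESC replicate 3 correlated best with replicate 2 of the other group (0.162 for TKO ESC and 0.151 for WT EB), so not every library correlated best with its own number. There the replicate block called 7 regions in place of 0, all lower in WT EB and none of them in Mdc1 (limma adjusted p = 0.134).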
